A study of Caenorhabditis elegans with 2 samples.

Results

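icd-1 and icd-2 encode the beta and alpha subunits of the nascent polypeptide-associated complex of *Caenorhabditis elegans*, and both had a peak of the tagged zinc finger protein ZTF-23 upstream of their start. The peak at icd-1 was among the strongest in the genome and the peak at icd-2 was far weaker. The members are 2 of 19973 nuclear protein-coding genes. They were chosen from the measured peaks by complex membership and signal, so their presence in the peak lists and their signals are given below as a description, with no test.

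Chromatin immunoprecipitation and sequencing had been run on whole mid-stage embryos (age 1.5 hours per the labels, from bleached eggs) of strain RW12279. In that strain a CRISPR insertion joins TY1, EGFP and 3xFLAG tags to ztf-23, and sonicated chromatin was precipitated with an anti-GFP antibody per the samples' description, while the antibody label names ztf-23. There was 1 group of 2 biological replicates, both of that strain, and no control library was analysed here. A whole embryo mixes many cell types, so a peak does not show in which cells the protein was bound, and the peak lists hold no expression values against which the stage label could be checked. The sources used here do not give the read depth.

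The nascent polypeptide-associated complex is a heterodimer that sits on the ribosome beside the exit tunnel and meets polypeptides as they emerge. It shields them and limits the access of the signal recognition particle to chains that are not bound for the endoplasmic reticulum. In worms, loss of ICD-1 is known to cause cell death in embryos, which gave the gene family its name (inhibitor of cell death).

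The authors deposited 8 peak lists on build ce11, the same assembly as WBcel235. A thresholded list keeps regions that pass the irreproducible discovery rate, a measure of agreement in rank, and a ranked list holds all regions that entered it. There were 4 combined lists, of which the conservative thresholded list (2234 regions, 2213 of them nuclear) is used for the main values. Each replicate had its own thresholded list, with 959 regions for replicate 1 and 1233 for replicate 2, and its own ranked list. A rank is the position by signal, the peak caller's value, whose scale is not stated. Within 1000 bp of the start, both genes had a summit, the highest point of a peak, in all 4 thresholded lists, as did 2.82% of all protein-coding genes. The share of protein-coding genes with such a summit was 7.20% in the conservative list, 7.68% in the other combined list, 3.57% in replicate 1 and 4.58% in replicate 2. In the ranked lists it was 73.0% and 73.1% for the combined pair, 59.9% for replicate 1 and 60.5% for replicate 2, so a region there sets a gene apart little.

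icd-1 (WBGene00002045) lies on the minus strand at II:6587577-6588655 and has 5 exons and 1 transcript. Its peak spanned II:6588733-6589399, entirely upstream of the gene, with the summit at 6589029, 374 bp upstream of the start. The 300 bases around this summit are printed because they hold an inverted repeat. Capitals mark its arms, each of 16 bases.
icd-1 peak, II:6588880-6589179, plus strand: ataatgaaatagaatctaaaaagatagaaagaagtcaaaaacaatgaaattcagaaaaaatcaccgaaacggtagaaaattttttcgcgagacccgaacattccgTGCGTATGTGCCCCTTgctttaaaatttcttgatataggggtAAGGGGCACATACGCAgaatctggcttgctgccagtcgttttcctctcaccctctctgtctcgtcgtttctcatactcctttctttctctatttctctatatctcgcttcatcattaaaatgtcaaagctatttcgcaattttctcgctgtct
The second arm is the exact reverse complement of the first, with 26 bases between them, and the summit fell 3 bp into the second arm. An exact inverted repeat with an arm of 16 bases or more was found in 69 of the 2213 nuclear conservative peaks (3.12%), and the median longest arm was 8 bases. The icd-1 peak is also the widest peak of the list, and a wider peak offers more room for a repeat.

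The icd-1 peak had a combined signal of 14986 and a score of 1000, the highest the score can take, and ranked 4 in each of the 8 lists. In replicate 1 the region II:6588753-6589353 had a signal of 7241.7 with its summit 374 bp upstream. In replicate 2 the region II:6588779-6589329 had a signal of 7735.8 with its summit 363 bp upstream. The replicates thus placed the summit at nearly the same base and gave the peak the same rank. The peak was 667 bp wide in the combined list, 601 bp in replicate 1 and 551 bp in replicate 2. No region of these lists was wider, and most regions shared 1 fixed width: 344 bp for 87.0% of the conservative list, 324 bp for 84.2% in replicate 1 and 304 bp for 81.6% in replicate 2.

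The summit of icd-1 lay inside 2 annotated non-coding RNA genes that overlap each other on opposite strands. C56C10.14 (WBGene00199264, II:6588923-6589066, plus strand, 144 bp) held the summit 106 bp downstream of its start. C56C10.15 (WBGene00200308, II:6588779-6589129, minus strand, 351 bp) held it 100 bp downstream of its start. Both genes lay wholly inside the peak, and all 144 bases of C56C10.14 are shared with C56C10.15. Both arms of the inverted repeat therefore lie in both non-coding genes. A conservative summit lay inside 324 of the 7764 genes annotated as ncRNA (4.17%).

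The peak cannot be given to icd-1 alone. vps-32.1, which encodes a subunit of the ESCRT-III membrane remodelling complex, starts 1053 bp from icd-1 on the other strand (II:6589708-6591084), and the summit was 679 bp upstream of it. The summit was nearer to icd-1 than to vps-32.1 and nearer still to the starts of both non-coding genes. On the other side, C56C10.7 begins after a gap of 1 base beyond the end of icd-1, on the same strand, and the summit was 1454 bp upstream of that start.

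No other thresholded region had a summit within 1000 bp of the icd-1 start. The ranked lists added weak regions inside the gene. Both combined ranked lists had 1 at 346 bp downstream with a signal of 10.509, at ranks 92351 of 104803 and 92340 of 104882 and with scores of 45 and 167. Replicate 1 had regions at 405 bp downstream (signal 16.998, score 46, rank 40328 of 59587) and 872 bp downstream (signal 8.6017, score 30, rank 51478). Replicate 2 had 1 at 998 bp downstream (signal 25.522, score 21, rank 31130 of 58911). All of these signals were below the medians of their lists, 32.311 for the conservative and 32.273 for the other combined ranked list, 22.76 for replicate 1 and 26.471 for replicate 2. Just outside the window, a region 1057 bp downstream had a combined signal of 83.298, and replicate 1 had 42.019 at 1071 bp.

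**Figure D1:**
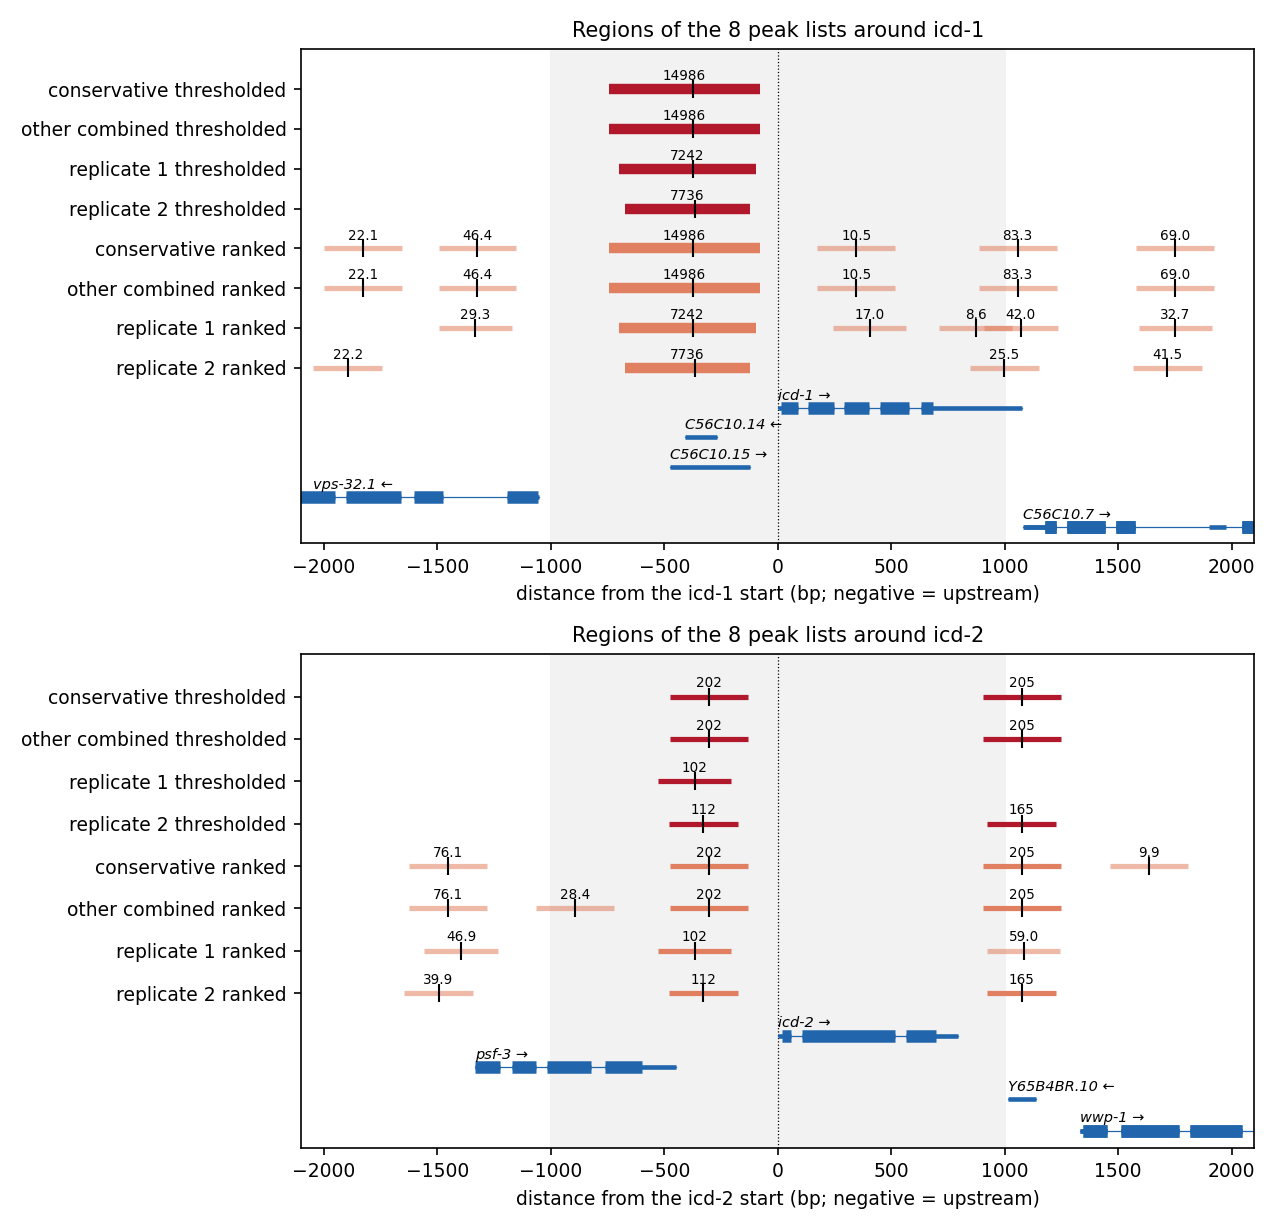
Regions of the 8 lists around each start, by distance in bp along the gene's own direction, with their signal above each bar, a tick at the summit, the 1000 bp window in grey and annotated exons (coding parts thicker) below. Red bars are thresholded regions and orange bars ranked regions, thicker above a signal of 1000 and paler at 100 or less; the icd-1 panel has 1 strong wide peak over C56C10.14 and C56C10.15, and the icd-2 panel has a peak of 202.46 upstream and another of 205.47 just outside the window.

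icd-2 (WBGene00022042) lies on the plus strand at I:535791-536587, with 3 exons and 1 transcript. Its peak spanned I:535318-535661, with the summit at 535490, 301 bp upstream of the start. The combined signal was 202.46 and the score 1000, at rank 508 of 2234 (22.7% down the conservative list) and 509 of 2413 in the other combined list. In replicate 1 the region I:535264-535587 had a signal of 101.73 at rank 439 of 959, with its summit 365 bp upstream. In replicate 2 the region I:535311-535614 had a signal of 112.11 at rank 514 of 1233, with its summit 328 bp upstream. The signals were close between replicates, the summit was placed less exactly than at icd-1, and in each list the peak had the commonest width.

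The icd-2 summit lies in the 447 bp between the end of psf-3, which encodes a subunit of the GINS complex of DNA replication, and the start of icd-2, both on the plus strand. It was 146 bp past the psf-3 end, and the peak itself reached over the last 27 bp of psf-3. No annotated non-coding gene was under it. In the ranked lists the same regions stood at ranks 613 and 614 of the combined pair, 538 of replicate 1 and 631 of replicate 2. The other combined ranked list alone added a region 892 bp upstream, in psf-3, with a signal of 28.356, a score of 50 and rank 59493 of 104882.

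A further conservative peak lay just outside the window of icd-2. Its summit, at 536867 in I:536695-537038, was 1076 bp downstream of the icd-2 start and 255 bp upstream of wwp-1, which encodes an E3 ubiquitin ligase. It lay inside the non-coding gene Y65B4BR.10 (I:536804-536931, minus strand). Its combined signal of 205.47 (rank 492) was slightly above that of the icd-2 peak. The replicates differed more than at icd-2, with 58.989 in replicate 1 (score 673, not in that replicate's thresholded list) and 164.51 in replicate 2 (rank 281 of 1233).

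Side by side, the subunits shared the position of the peak and differed in its size. Both had their strongest summit between 301 and 374 bp upstream in the combined lists, and in both replicates the icd-1 summit and the icd-2 summit lay between 328 and 374 bp upstream. The icd-1 signal was 74.0 times the icd-2 signal in the conservative list, 71.2 times in replicate 1 and 69.0 times in replicate 2. The replicate values were 7241.7 and 7735.8 at icd-1 and 101.73 and 112.11 at icd-2. Their separation follows from the choice of members by signal and is no test. Each ratio compares signals within 1 list. Among the 1439 protein-coding genes with a conservative summit in the window, whose median signal was 149.46, icd-1 was 8th and icd-2 437th. icd-1 was level with vps-32.1, which shares its peak and was listed before it. Every gene with the shared summit in its window was counted, so a peak can count for several genes.

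The ratio of replicate 2 to replicate 1 signal was 1.07 at icd-1 and 1.10 at icd-2. Over the 2189 nuclear conservative peaks with a region in both replicates the median ratio was 1.18, with 0.783 and 1.78 at the 5th and 95th percentiles. Both genes were thus near the middle of this spread, while the peak at Y65B4BR.10, with 2.79, was above it.

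**Figure D2:**
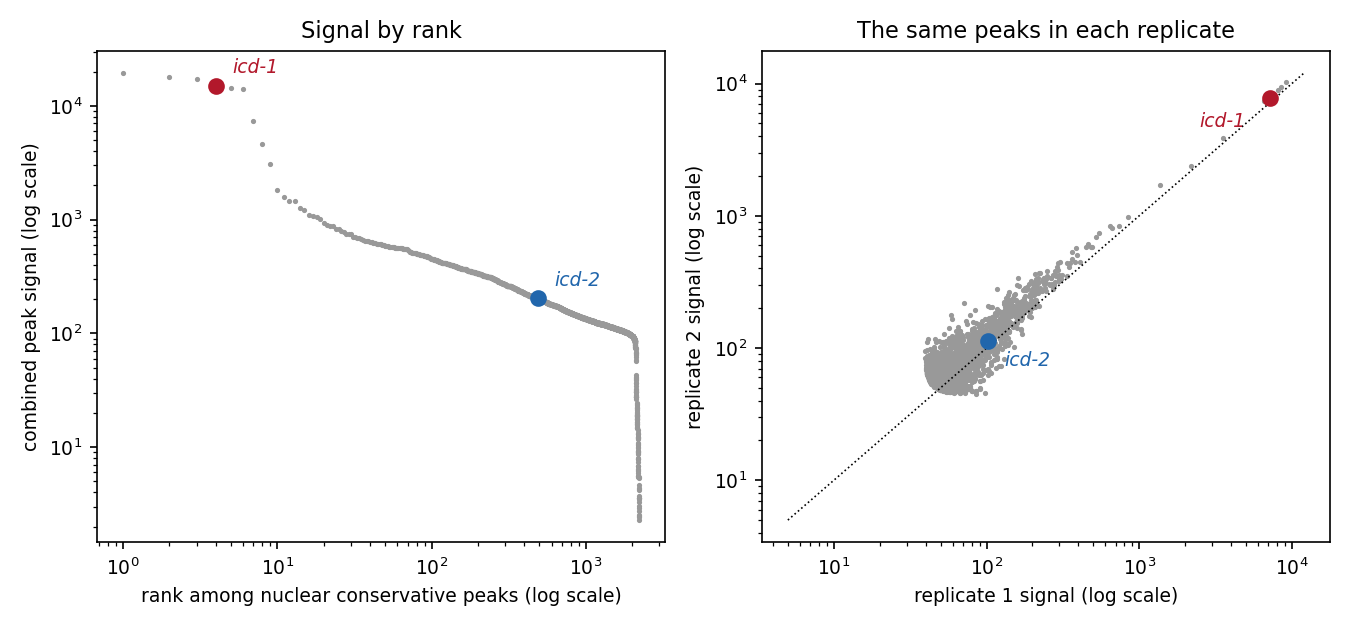
Left, combined signal against rank for the 2213 nuclear conservative peaks; right, signal in replicate 2 against replicate 1 for the peaks with a region in both, with a dotted line of equality; all axes are log scales. icd-1 (red) stands on the short upper shoulder of the rank curve and icd-2 (blue) on its long slope, and in both panels each is 1 point; the nuclear rank leaves out stronger mitochondrial regions, so icd-2 is at 489 there.

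Peaks next to icd-1 in rank belonged to a small group with signals far above the remaining list. Above it stood trap-3 (19378), for a component of the TRAP complex at the protein-conducting channel of the endoplasmic reticulum, eef-1G (17955), an elongation factor subunit, and drr-2 (17132), a translation factor. Below it stood rpl-24.1 (14280), a ribosomal protein, wip-1 (13971), related to WASP-interacting proteins, and then dkc-1 (7409.7), the dyskerin homologue, which modifies uridines in RNA guided by snoRNAs. The order of the first 6 was the same in both replicates: trap-3 had 9129.2 and 10262, eef-1G 8496 and 9476.8, drr-2 8169.6 and 9002.4, icd-1 7241.7 and 7735.8, rpl-24.1 6621.5 and 7651.2, and wip-1 6569.6 and 7432.1. icd-1 was above rpl-24.1 in each replicate, narrowly in replicate 2, and 2 replicates do not allow a test of that order. Each peak is named here by its nearest protein-coding start only. Other starts can lie in the window, as at rpl-24.1, whose peak rps-10 shares. A name therefore does not give the peak to that gene alone.

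The neighbours of icd-2 in rank were separated by less than 1 unit of combined signal. Just above it were a peak with no protein-coding start in the window (202.82), the peak of ntl-2 (202.78), a subunit of the CCR4-NOT deadenylase complex, and another with no such start (202.71). Just below it were a peak with no such start (202.1), W02D3.4 (201.89) and rpn-3 (201.87), a subunit of the proteasome regulatory particle. Replicate values of these neighbours ranged from 66.925 to 105.69 in replicate 1 and from 96.778 to 134.58 in replicate 2, and their order differed between the replicates.

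Likeness between genes was measured as the distance between log2 signals in the 2 replicates, over 9413 protein-coding genes with a ranked region in the window in both. Nearest to icd-1 were vps-32.1, at a distance of 0.0 because it shares the peak, and rpl-24.1 and rps-10, both at 0.13, which share a peak with each other. Nearest to icd-2 were F48A11.4 at 0.0256 (103.01 and 113.52), mppb-1, a subunit of the mitochondrial processing peptidase, at 0.0292 (100.66 and 110.19), and F26G1.1 at 0.0343 (103.92 and 110.93). With only 2 libraries many genes have nearly equal values.

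The other genes that act on chains leaving the ribosome had signals near the overall median where they had a peak. Of 32 such genes, 12 (37.5%) had a conservative summit within 1000 bp, where 7.20% of all protein-coding genes did. Their signals ran from 105.46 to 451.86 with a median of 150.47, beside the median of 149.46 over all genes with a summit, so that icd-2 lay within their range and icd-1 far above it. For 6 of the 12, however, the protein-coding start nearest to the summit was that of another gene. In the replicates' own thresholded lists, 5 of the 12 had a summit in both, 3 in replicate 1 alone, 2 in replicate 2 alone and 2 in neither. Over all protein-coding genes, 1439 had a conservative summit and 564 had a summit in all 4 thresholded lists. The 5 of 12 with a summit in both are near that proportion, so this share is not particular to the list, though 12 genes are few. No such background was counted for a summit in 1 replicate alone or in neither.

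Ribosomal proteins around the exit tunnel, where the complex docks, had a summit at 5 of 9 genes. rpl-35, with 451.86 combined and 175.55 and 277.14 in the replicates, was the strongest of the list, and its summit was 445 bp upstream. rpl-22 had 237.21 (113.58 and 125.01, nearest start ify-1), rpl-39 had 138.8 (72.119 and 61.38, nearest start rps-30), rpl-25.2 had 108.85 (52.635 and 58.797) and rpl-17 had 105.46 (47.833 and 58.796, nearest start aps-3). The signal recognition particle and its receptor, which share the ribosome's exit site with the complex, had a summit at 3 of 8 genes. Among these were F37F2.2, annotated as the putative 19 kDa protein of the particle, at 129.2 (64.273 and 73.048), and F38A1.8, annotated with a GTP-binding domain of the SRP54 type, at 117.62 (58.054 and 70.717).

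Folding factors had a summit at 4 of 8 genes. hsp-1, a constitutive Hsp70, had 297.07 (169.57 and 128.44), the prefoldin subunit pfd-5 had 182.64 (87.572 and 100.11), pfd-1 had 161.97 (84.289 and 82.068, nearest start F01G4.6) and the J-domain protein gene dnj-11 had 138.98 (68.069 and 70.295, nearest start F38A5.2). The enzymes that trim, acetylate or myristoylate the N-terminus of emerging chains had a summit at 0 of 7 genes. At the share of 7.20% over all protein-coding genes, a set of 7 would often have none, so the 0 does not set these enzymes apart. Among them the strongest ranked region in the window was at nmt-1, the N-myristoyltransferase gene, with 37.413 in replicate 1 and 58.49 in replicate 2.

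**Figure D3:**
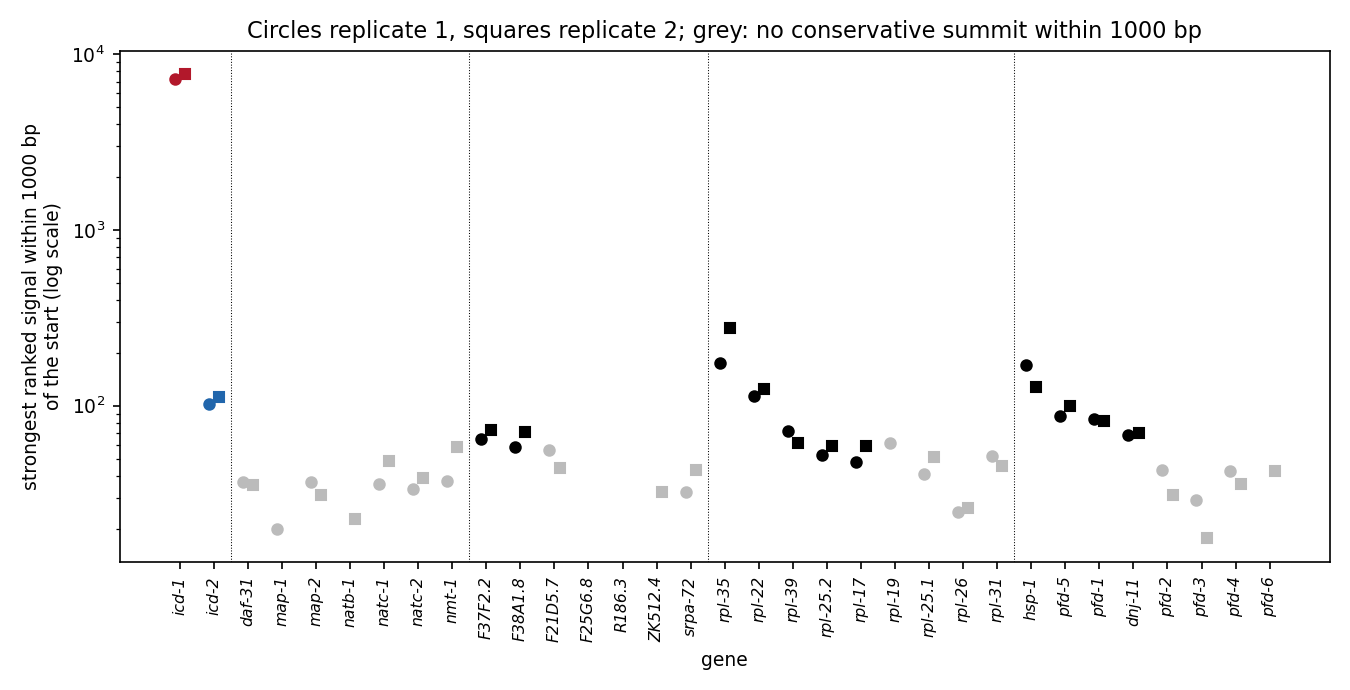
Strongest ranked signal within 1000 bp of the start (log scale) in replicate 1 (circles) and replicate 2 (squares) for icd-1, icd-2 and 31 other genes acting on emerging chains, with dotted lines between N-terminal modification, signal recognition particle, exit tunnel and folding genes. Grey marks genes with no conservative summit, and a missing symbol means no region; icd-1 stands above every other gene of the plot and icd-2 among those with a summit.

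The 16-base arm of the icd-1 repeat recurred at other strong peaks. It was singled out after the sequence had been read. The sites that match it with at most 2 mismatches within 100 bp of a conservative summit, apart from the one at rpl-24.1, are printed below. They are given in the direction of the arm, with 7 bases to either side, because the letters they share can be seen only side by side. Capitals mark the bases that match the arm.
icd-1 left arm, II:6588978-6589007, plus strand: cattccgTGCGTATGTGCCCCTTgctttaa
icd-1 right arm, II:6589020-6589049, minus strand: cagattcTGCGTATGTGCCCCTTaccccta
eef-1A.2, X:7823336-7823365, minus strand: ccgccttTGCGTATGTGCCCCTTgtgctcc
eef-1G, V:10965703-10965732, minus strand: aaaagtcTGCGTATGTGCCCCTggcagaat
trap-3, IV:2389140-2389169, minus strand: cacgccggGCGTATGTGCCCCcTtcatcat
dkc-1, III:10748195-10748224, minus strand: cacaggcTGCGTgTGTGCCCCTatgcctca
no protein-coding start in the window, III:8412109-8412138, minus strand: gtatgtgTGCGTATGTGCCCCccagagggt
These 7 printed sites share 12 of the 16 positions. Much of that follows from the choice of sites, since each was kept for at most 2 mismatches and 2 are the icd-1 arms themselves. The bases outside the arm, which the limit did not cover, differ, so this contrast is a description only. At eef-1A.2, which encodes elongation factor 1A, the match was exact. The eef-1G site spans the annotated start of that gene. Counted by peak, with icd-1 once and with rpl-24.1, whose site is not printed, 7 conservative peaks had such a site. Among those peaks icd-1 was the only one with a match on each side of a short spacer.

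Close matches to the arm were found mostly at the top of the list. A site with at most 2 mismatches lay within 100 bp of 7 of the 2213 nuclear conservative summits (0.316%), and 6 of these were among the 9 strongest. The remaining one had nuclear rank 20 and a signal of 941.09. Both the 7 and the 6 include icd-1 itself, which had to match because the arm was taken from its peak. The same search, on both strands, found such a site in 0 of 4426 flank windows centred 300 bp to either side and in 3 of 19973 windows of the same length that end at a protein-coding start (0.0150%). Among the 9 strongest peaks the best match had 2 mismatches at trap-3, 1 at eef-1G, 4 at drr-2, 0 at icd-1, where it is exact by construction, 2 at rpl-24.1, 5 at wip-1, 2 at dkc-1, 0 at eef-1A.2 and 7 at tasp-1. The median over all summit windows was 7 and the same over flank windows, so that drr-2 and wip-1 were closer than the median and tasp-1 was at it. A best match with 4 mismatches was found in 66 of the 2213 summit windows, drr-2 among them, and in 54 of the 4426 flank windows. With 5 mismatches it was found in 211 summit windows, wip-1 among them, and in 216 flank windows. Flank windows were the more numerous, so such matches took up a larger share of the summit windows than of the flank windows. The closeness at drr-2 and wip-1 is therefore not particular to them.

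**Figure D4:**
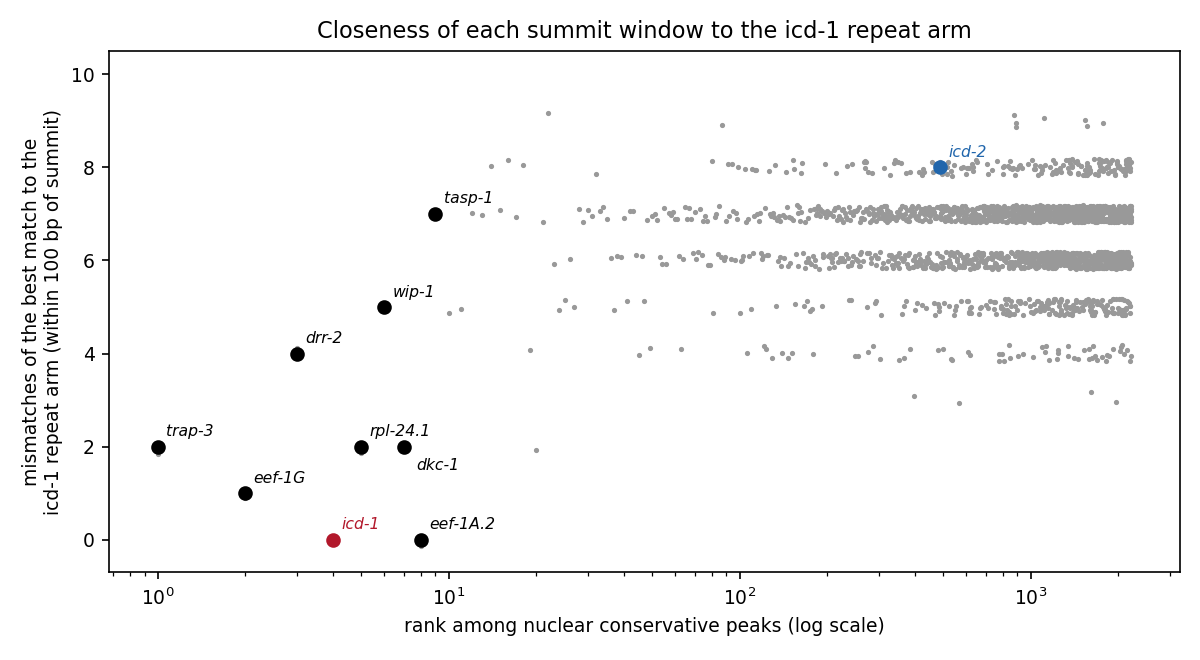
Mismatches of the best match to the 16-base arm within 100 bp of each nuclear conservative summit, against rank by signal (log scale); points are moved slightly up or down so that they can be told apart, and icd-1 (red), icd-2 (blue) and the other 8 of the 9 strongest peaks (black) are named. Windows with 2 mismatches or fewer are all at rank 20 or better, and icd-2 lies in the band of 8.

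icd-2 had no such site. Its best match within 100 bp of the summit had 8 mismatches, and the best within 1000 bp of its start had 6. The longest inverted repeat in its peak had arms of 9 bases. None of the 85 distinct 8-base words in the 101 bases around the icd-1 summit occurred in the same window of icd-2, as in 1613 of the 2212 other nuclear conservative summit windows (72.9%).

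Most sites of this kind lay outside the conservative peaks. The nuclear genome held 30 sites with at most 2 mismatches, of which 8 lay in 7 conservative peaks with signals from 941.09 to 19378. Of the 22 outside, 9 lay in a region of the conservative ranked list, with signals from 27.112 to 100.21, and 13 in none. Of those 13, 4 lay in a region of a replicate's own ranked list. One of the 4, at II:6491736-6491751, ended 8 bp before a conservative peak near T28D9.11 (II:6491759-6492102, signal 148.49) and lay in a replicate 1 region with a signal of 64.2. A protein-coding start lay within 1000 bp of 7 of the 8 sites inside peaks and of 8 of the 22 outside. Of the 4 exact copies, 2 are at icd-1 and 1 at eef-1A.2, and the last, at IV:4131740-4131755 with no protein-coding start in the window, lay in a ranked region with a combined signal of 75.202 (rank 7421), 36.601 in replicate 2 and no region in replicate 1.

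Of the 8-base words around the icd-1 summit, the 3 most frequent in summit windows relative to flanks overlap each other. They lie in a pyrimidine-rich stretch that follows the second arm after a gap, toward the edge of the window. CCTCTCAC was present, on either strand, in 26 of 2213 summit windows (1.17%, exact Clopper-Pearson 95% interval 0.769 to 1.72 for counting error only), 0.136% of flank windows and 0.280% of windows ending at protein-coding starts. CTCTCACC was present in 1.31% (0.879 to 1.88), 0.316% and 0.260%, and GGGTGAGA, whose other strand reads TCTCACCC, in 1.04% (0.660 to 1.56), 0.136% and 0.205%. Each word was rare even among summits, and neighbouring peaks are not independent of each other. The words were picked from 85 by their excess over flanks in these same windows, and the icd-1 window is counted. Their excess is therefore a description only, and the intervals do not allow for the choice.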

How the data were processed

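The values start from the authors' peak lists. The signal per region (the peak caller's value, scale not stated) and the score from 0 to 1000 were deposited by the authors for each list, on build ce11 per the labels. The summit offset of each region was deposited by the authors too and added to its start. For the aligner, the peak caller and the sequencing depth, values are not given in the sources used here. Counting error of a signal is therefore unknown. The 2 combined ranked lists were tied to the 2 thresholded ones by shared regions and scores. Their 4 columns of per-replicate values name no sample and were not used; replicate signals came from each replicate's own ranked list.

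Regions were ranked by signal with Python 3.11.15 and numpy 2.4.6, and summits were set against gene starts of Ensembl release 115 on WBcel235, printed 1-based. Intervals used scipy 1.17.1. The search for summits near starts was tested on simulated data and recovered every planted gene. Named genes were both members, genes at their loci, the 3 rank neighbours to each side, the 3 most alike genes, and list genes with a summit; genes of the repeat arm were added after its values were seen. The values of 1 list gene are not reported here, though it stays in the counts. The members and lists were chosen with earlier results of these data known. No test was run, because both replicates belong to 1 group. Alternatives were the other combined list, each replicate alone, the 500 strongest peaks, other windows, starts and assignments, and, added after seeing the data, other limits for the repeat arm.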

Additional observations from a re-analysis of the deposited data

How the results depend on the processing

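Of 86 alternatives, 59 left the value within its limit, 26 moved it beyond and 1 turned a direction. The limit was 1.5 times for counts, 1 SD of the replicates for ranks, distances and the signal ratio, and the exact 95% interval for shares, so that some shifts counted as moved are small. icd-1 kept rank 4 and 1 summit under every alternative run, and its summit distance without either replicate was 363 to 374 bp. For icd-2, leaving out a replicate gave a distance of 328 to 365 bp and a rank of 439 to 514. Among the 500 strongest peaks icd-2 had 0 summits, so no rank, distance or ratio could be had there, and with a 2000 bp window it had 2, the stronger at -1076 bp upstream, that is, downstream at Y65B4BR.10. The signal ratio without either replicate was 69.0 to 71.2. The count of 12 list genes became 7 to 8 without a replicate, 4 among the 500 strongest peaks and 6 where the gene had to be the nearest protein-coding start. The share of all protein-coding genes with a summit was 7.68% in the other combined list, 3.57% to 4.58% without a replicate, 2.16% among the 500 strongest, 5.29% at 500 bp, 10.4% at 2000 bp, 7.9% with any transcript start and 5.38% with the nearest start only. With 25 bp to either side of the summit, CCTCTCAC was in 0.497%, CTCTCACC in 0.723% and GGGTGAGA in 0.542% of summit windows, and GGGTGAGA without a replicate was in 0.64% to 0.992%. Conservative summits with the repeat arm numbered 2 with no mismatch, 3 with at most 1 and 11 with at most 3, against 7, and each of these counts includes icd-1 itself. No paired analysis was possible because the replicates form 1 group and no test was run. The cause of these shifts was not tested beyond the smaller or larger lists and windows themselves. Read depth limits the lists but is unknown here.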
